A study of Mus musculus with 13 samples.

Results

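Integrins and laminins are the receptors and a main ligand by which epithelial cells hold to their basement membrane, and their subunit genes were followed across a culture series of mouse damaged hepatocytes (dHeps). Members were all genes of the count table whose symbol names an integrin alpha subunit, an integrin beta subunit or a laminin alpha, beta or gamma chain, and which had 10 or more counts in at least 2 libraries. Of 27141 genes in the table, 37 symbols matched and 36 passed the count limit, namely 25 integrin subunits and 11 laminin chains. Itgad was left out, since its highest count in a library was 2 and its total over the 13 libraries was 3. The members nearest to the limit were Itgae, which reached 10 counts in 4 libraries, and Itgax, which did so in 8.

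The dHeps came from wild-type C57BL/6 mice with chronic liver injury from carbon tetrachloride (CCl4). They were isolated by perfusion with digestive enzymes, and no marker sort was stated for them. From injured mice with labelled hepatocytes, the paper reports that its isolation for hepatocyte-like cells was enriched for hepatocyte-derived cells. The cells were plated on rat tail collagen and kept for 16 days in a serum-free maintenance medium. All 7 groups thus share the injury, the collagen coating and the medium, and no culture of uninjured hepatocytes is among these libraries. The groups were DMSO, the solvent control, the cocktail 5C, and 5C with 1 of its 5 compounds left out. GSK429286A (G) blocks the kinase ROCK and CID755673 (C) blocks protein kinase D. ETC-1002 (E) activates AMPK, and forskolin (F) raises cAMP through adenylate cyclase. Salidroside (S) is a glycoside from plants. The letter after the hyphen names the missing compound, as in 5C-G. The 5C-S group had 1 library and every other group 2, called A and B. Each comparison of a removal with 5C uses the same 5C libraries, which also enter 5C against DMSO, so the comparisons are not independent of each other.

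Total counts per library ran from 30195867 to 45491932, and 0.286% (5C-C B) to 0.516% (DMSO A) of them fell in the 36 genes. Hepatocyte markers, among them Alb and Hnf4a, were present in every library, with a summed level of 3032.2 to 21572.4 FPKM, which are fragments scaled to gene length and library size. That sum was 10448.7 to 11670.1 in DMSO, 10816.4 to 10834.3 in 5C, 6421.5 to 7753.7 in 5C-G, 4578.6 to 4989.6 in 5C-C, 3032.2 to 3531.1 in 5C-E, 17074.7 to 21572.4 in 5C-F and 7040.5 in 5C-S. Against 5C, 4 of the 6 markers fell in 5C-E, 2 fell in 5C-C, 1 rose and 2 fell in 5C-G, and 3 rose in 5C-F, and the part of these shifts in the changes of members was not tested. Markers of macrophages (311.8 to 4972.7 FPKM), of stellate cells and fibroblasts (900.7 to 2354.6), of cholangiocytes (1455.9 to 3422.6) and of mesothelial cells (462.4 to 945.1) were present as well. All 4 T and B cell markers found in the table (Cd3e, Cd3g, Cd79a and Ms4a1) were at 0 counts in both 5C libraries, and their summed level in any library was at most 0.269 FPKM. In such bulk RNA, fewer cells of a type and less RNA per cell cannot be told apart. The fitted changes of all genes also moved with the GC content of the transcripts, with Spearman's rho across 19787 genes of -0.18 for 5C against DMSO and of 0.26 to 0.41 for the 5 removals, and the part of this trend in the results was not tested beyond the offset named beside them.

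Laminins are trimers of 1 alpha, 1 beta and 1 gamma chain that assemble inside the cell and polymerize into the sheet of the basement membrane. Integrins are pairs of 1 alpha and 1 beta subunit that cross the plasma membrane and tie such matrix to the actin cytoskeleton through talin, kindlin and vinculin. The beta1 subunit pairs with most alpha subunits, alpha V takes several beta subunits, and the beta2 pairs are restricted to leukocytes. In healthy liver the hepatocyte plate faces the sinusoid over a space poor in laminin, whereas bile ducts rest on a laminin-rich basement membrane, and laminin is laid down along the sinusoids in chronic injury.

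The promoters of the genes with the largest changes of 5C against DMSO in either direction are shown first, as the 150 bases before the start of the canonical transcript in GENCODE M39, read 5′ to 3′ on the gene's strand from GRCm39. Itgb2 and Itgam form the leukocyte receptor CR3 and fell the most, and Itgb6 and Lamb3, which belong to epithelial adhesion complexes, rose the most.
Itgb2, chr10:77365936-77366085, plus strand: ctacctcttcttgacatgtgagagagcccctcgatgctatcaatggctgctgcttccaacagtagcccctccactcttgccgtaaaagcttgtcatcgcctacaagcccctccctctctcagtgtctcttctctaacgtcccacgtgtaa
Itgam, chr7:127661658-127661807, plus strand: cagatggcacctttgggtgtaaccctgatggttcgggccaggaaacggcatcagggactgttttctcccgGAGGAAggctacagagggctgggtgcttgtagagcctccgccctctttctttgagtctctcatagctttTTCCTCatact
Itgb6, chr2:60504056-60504205, minus strand: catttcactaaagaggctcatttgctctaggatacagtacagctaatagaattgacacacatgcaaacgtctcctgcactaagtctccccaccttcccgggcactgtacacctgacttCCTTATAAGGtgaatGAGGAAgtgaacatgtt
Lamb3, chr1:192984151-192984300, plus strand: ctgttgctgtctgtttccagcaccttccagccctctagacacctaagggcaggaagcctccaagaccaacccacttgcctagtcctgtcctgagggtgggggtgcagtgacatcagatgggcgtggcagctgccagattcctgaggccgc
Capitals mark matches, on either strand, to 4 motifs: the core of the myeloid factor PU.1 (GAGGAA), the TEAD motif of the YAP pathway (GGAATG), the AP-1 motif (TGANTCA) and the CArG box of serum response factor. The Itgam window holds 2 PU.1 cores, from 80 to 75 and from 11 to 6 bases before the start. The Itgb6 window holds a CArG box from 32 to 23 bases and a PU.1 core from 17 to 12 bases before the start, which do not overlap. None of these motifs occurs in the Itgb2 and Lamb3 windows. The Itgb6 and Lamb3 windows lie inside the annotated gene, since both genes have transcripts that start further upstream. Over the windows of 17390 protein-coding genes, 14.49% held a PU.1 core, 6.87% a TEAD motif, 3.36% an AP-1 motif and 0.77% a CArG box. Of the 36 members, 9 (25.0%), 2 (5.56%), 1 (2.78%) and 2 (5.56%) did.

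To ask which of these genes the cocktail changes and which changes hang on a compound, 1 edgeR quasi-likelihood fit was made over the 13 libraries, and all 36 members were among its 19884 genes. A member was called where its adjusted p, over all genes tested, lay under 0.05 and its fold change beyond 2. Between 5C and DMSO, 8 of 36 members (22.2%) were called, 4 higher and 4 lower, where 4.55% of all genes were called (1.66% higher and 2.89% lower). Between 5C-G and 5C, 10 members (27.8%) were called, 5 in each direction, beside 13.1% of all genes (7.47% higher and 5.64% lower). Between 5C-C and 5C, 9 members (25%) were called, 4 higher and 5 lower, which is near the 20.2% of all genes (9.65% higher and 10.5% lower). Between 5C-E and 5C, 2 members (5.56%) were called, 1 in each direction, beside 1.96% of all genes (0.654% higher and 1.31% lower). Between 5C-F and 5C, 3 members (8.33%) were called, 1 higher and 2 lower, beside 4.84% of all genes (2.69% higher and 2.15% lower).

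The median log2 fold change of the members was -0.01 for 5C against DMSO. Against 5C it was -0.09 where G was left out, 0.09 where C was, 0.20 where E was, -0.31 where F was and -0.20 where S was, while the median of all genes lay between -0.01 and 0.01. In every comparison, members lay on both sides of 0. In a test of equal means over the 6 groups with 2 libraries, 30 of 36 members (83.3%) passed, beside 45.6% of all genes. The 6 that did not pass were Itga6, Itgae, Itgax, Itgb7, Lama3 and Lamb2. In all, 20 members were called at least once over the 5 tested comparisons, with 32 calls, and 16 were never called. Itga7, Itga8 and Itgb2 were called in 3 comparisons each.

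The counts for 5C against DMSO rested in part on single libraries. They were 2 without DMSO B, 4 without 5C A, 5 without 5C B and 6 without DMSO A. The count for 5C-E was 1 without 5C A, 5C B or 5C-E B and that for 5C-F was 1 without 5C B. The test with limma on log2(FPKM + 1), where the pseudocount of 1 shrinks the change of low genes, did not call 16 of the 32, among them Itga11, Itga4, Itga7, Itgb6 and Lamb3 in 5C against DMSO, Itga2, Itga7, Itgb3, Itgb6 and Lama1 in 5C-G against 5C, Itga4 and Itgb4 in 5C-C against 5C, Lama1 in 5C-E against 5C, Itga11 and Lama4 in 5C-F against 5C.

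**Figure D1:**
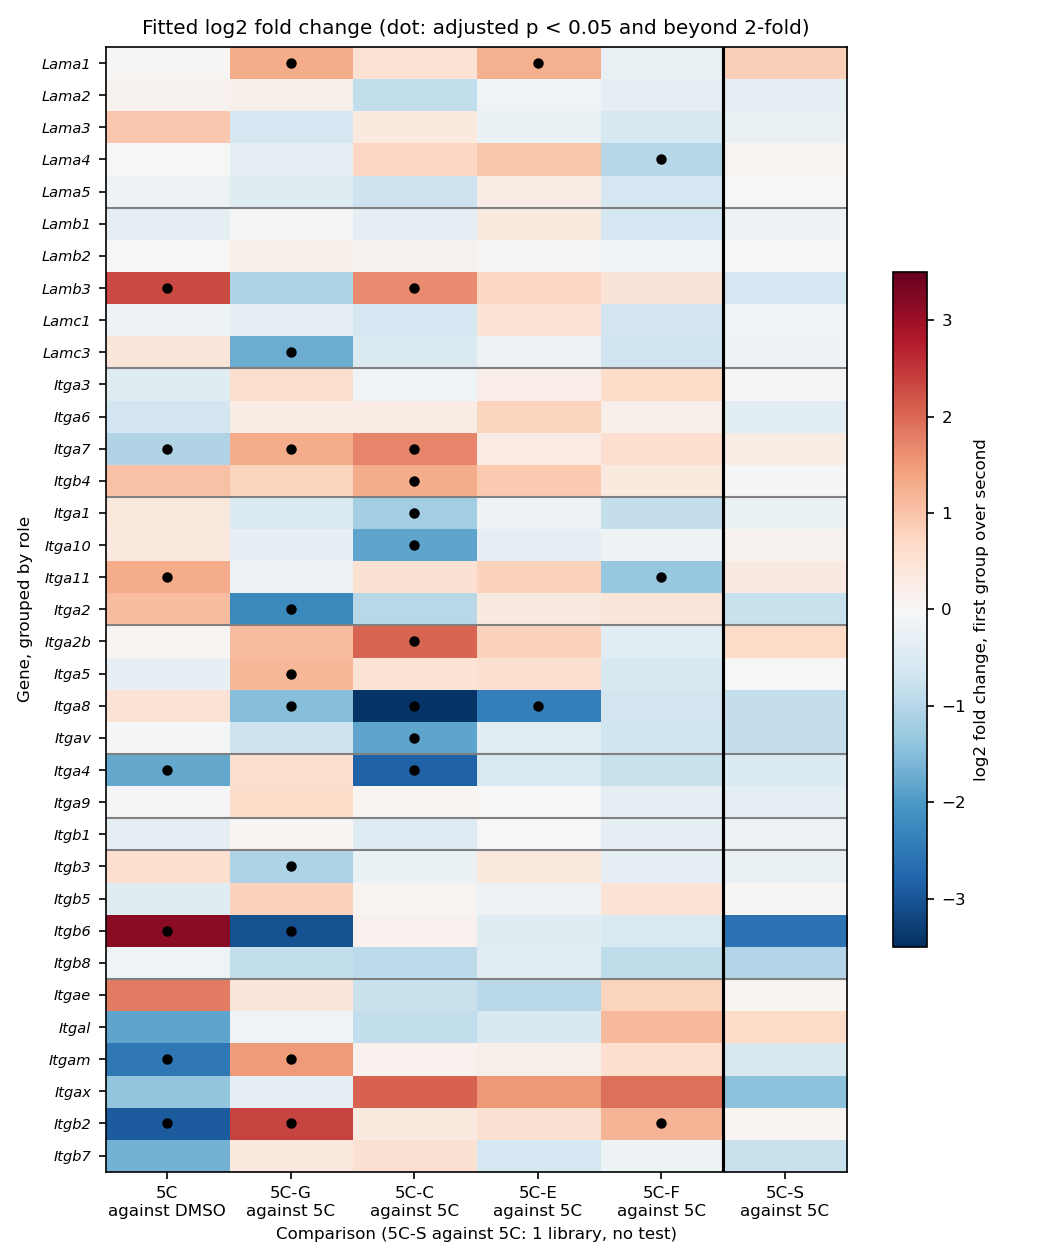
Fitted log2 fold change (colour) of 35 of the 36 genes (rows, grouped by role) in 6 comparisons (columns), where a dot marks an adjusted p under 0.05 beyond 2-fold and the 5C-S column has no test. Dots are spread over most roles, and none lies in the rows of Itgb1, Itgb5, Lama5, Lamb1, Lamb2 and Lamc1, which are among the most abundant members.

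Levels between the genes, compared per length as FPKM, were dominated by a few subunits in every group. Itgb1, the shared beta subunit, was the most abundant member in every library, at 158 (5C-C B) to 346 (DMSO B) FPKM. It was never called, and its log2 fold change was -0.34 for 5C against DMSO and -0.46 for 5C-C against 5C (adjusted p = 0.305 and 0.038). Itgb5, a partner of alpha V, followed at 78.8 (5C-E A) to 159.5 (5C-G B) FPKM, and Itga3, an alpha subunit of the main laminin receptor of epithelia, lay at 47.1 (5C-C B) to 108 (5C-F B). In DMSO, Itgb2 (95.4 and 93.7 FPKM) lay above Itga3 (83.4 and 78.0).

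Among the alpha subunits Itga3 made up a mean of 38.7% (5C) to 58.4% (5C-F) of the summed FPKM. Among the laminin alpha chains Lama5, the chain of epithelial and vascular basement membranes, made up a mean of 63.1% (5C-C) to 82.95% (DMSO). The beta chains Lamb2 and Lamb1 made up nearly all of their class, with Lamb3 at a mean of 0.361% (DMSO) to 6.04% (5C-C). These shares are descriptions of RNA levels and say nothing of assembled trimers.

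**Figure D2:**
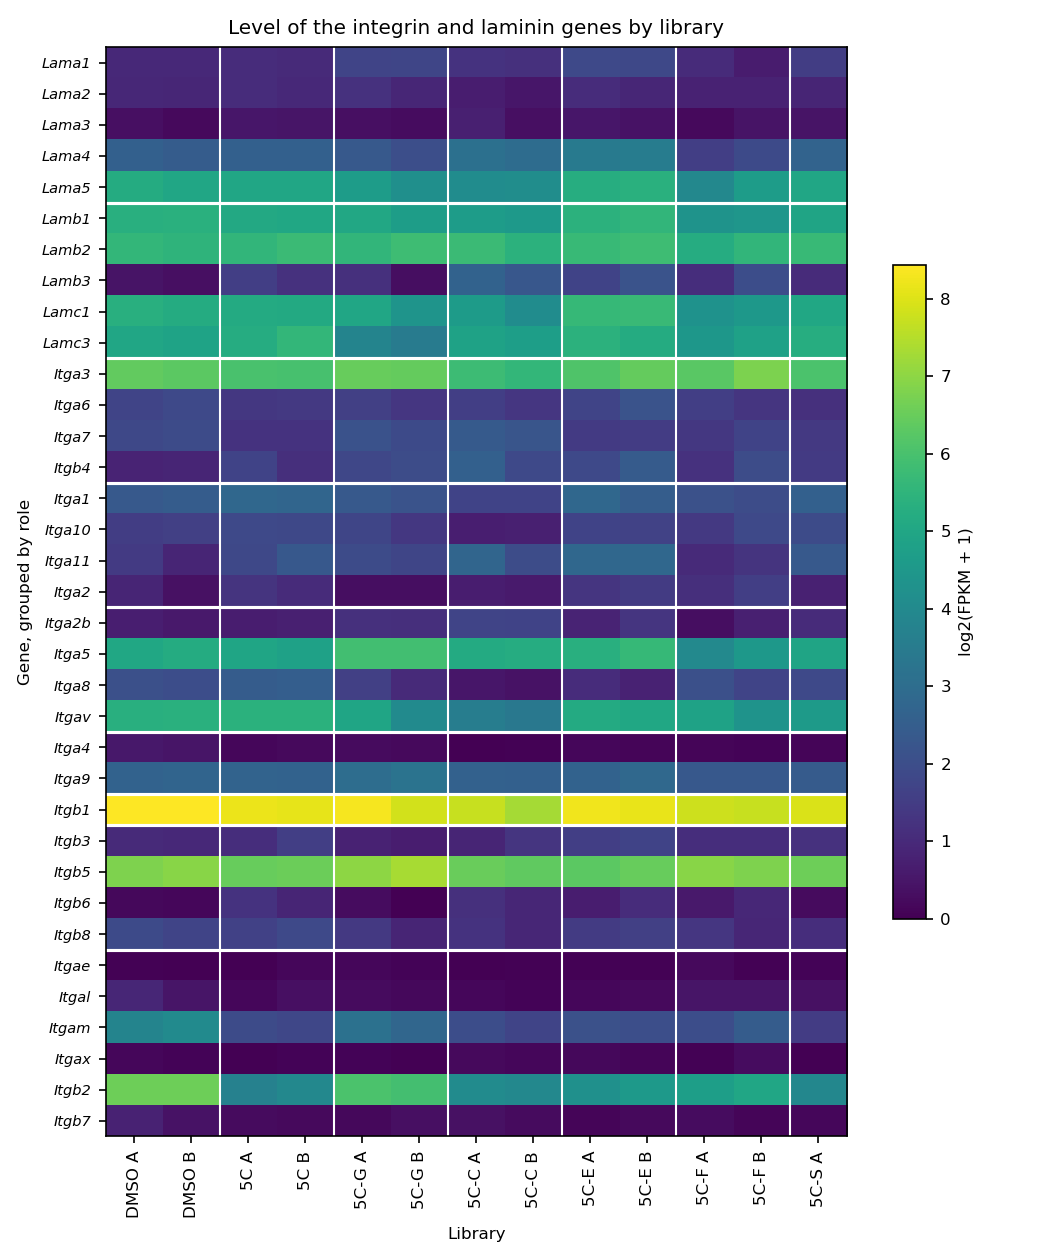
Level of 35 of the 36 genes (rows, grouped by role) in each library (columns) as log2(FPKM + 1). Itgb1 is the brightest row throughout, and Itgb2 is bright in DMSO and 5C-G and darker in the other groups.

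**Figure D3:**
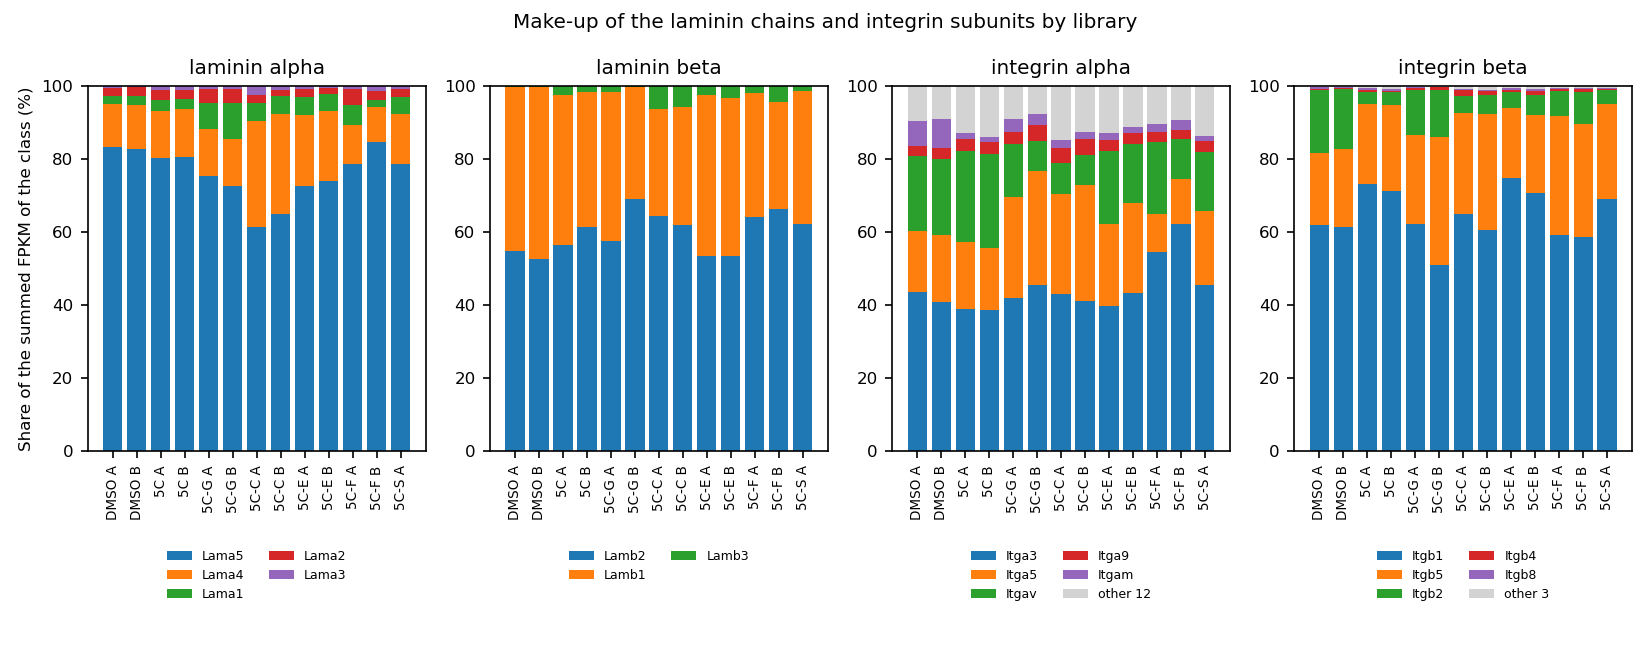
Share (%) of the summed FPKM of each class that each gene holds, by library, for laminin alpha and beta chains and integrin alpha and beta subunits, with minor genes pooled in grey. Lama5, Itga3 and Itgb1 hold the largest shares of their classes on average, and the share of Itgb2 is largest in DMSO and 5C-G among the groups.

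The change with the lowest adjusted p among the members in 5C against DMSO was that of a leukocyte integrin subunit. Itgb2 encodes the beta2 subunit of all leukocyte-specific integrins of the LFA-1 and CR3 kind. Itgb2 measured 95.4 and 93.7 FPKM in DMSO A and B, 12.2 and 14.2 in 5C, 64.6 and 59.5 in 5C-G, 15.8 and 14.2 in 5C-C, 17.7 and 22.3 in 5C-E, 25.5 and 31.1 in 5C-F and 13.9 in 5C-S. DMSO and 5C-G thus stood high, 5C-F and then 5C-E lay between, and 5C, 5C-C and 5C-S lay at or below 15.8. In 5C against DMSO, Itgb2 fell by 2.92 on the log2 scale (SE 0.19, adjusted p = 1.92e-08). It rose by 2.37 on the log2 scale (SE 0.18, adjusted p = 2.25e-07) in 5C-G against 5C, and rose by 1.20 on the log2 scale (SE 0.18, adjusted p = 0.000736) in 5C-F against 5C. All 3 calls held under each of the 10 alternatives run.

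Itgam, the alpha subunit of CR3 on macrophages and neutrophils, followed the same order in part. Itgam measured 12.96 and 15.3 FPKM in DMSO A and B, 2.79 and 2.48 in 5C, 7.82 and 5.84 in 5C-G, 2.96 and 2.28 in 5C-C, 3.29 and 3.05 in 5C-E, 2.95 and 4.53 in 5C-F and 1.82 in 5C-S. Both DMSO libraries exceeded both 5C-G libraries, these exceeded all others, and 5C and 5C-C overlapped. Itgam fell by 2.50 on the log2 scale (SE 0.23, adjusted p = 9.97e-07) in 5C against DMSO and rose by 1.5 on the log2 scale (SE 0.22, adjusted p = 0.000142) in 5C-G against 5C, and both calls held under each alternative run. Its value for 5C-F against 5C was 0.60 (adjusted p = 0.087).

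The other leukocyte subunits were rare. Itgal, the alpha subunit of LFA-1 on lymphocytes and monocytes, ran from 0.0668 (5C-C B) to 0.886 (DMSO A) FPKM and had a log2 fold change of -1.83 in 5C against DMSO (adjusted p = 0.0839). Itgae, which marks intraepithelial T cells, Itgax, common on dendritic cells, and Itgb7, a homing subunit of lymphocytes, had at most 28, 44 and 75 counts in a library, and none of them was called. Itgae ran from 0.007003 (DMSO B) to 0.158 (5C-F A) FPKM, Itgax from 0 (5C A and 5C-G B) to 0.218 (5C-F B) and Itgb7 from 0.0793 (5C-E A) to 0.74 (DMSO A). With so few counts, a change of moderate size in these 3 genes was not detectable at this depth.

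Macrophage markers moved beside Itgb2. The summed level of the 10 markers was 2677.1 to 2683.4 FPKM in DMSO, 311.8 to 338 in 5C, 3198.2 to 4972.7 in 5C-G, 739.7 to 1243.1 in 5C-C, 455.2 to 579.2 in 5C-E, 1002.2 to 1287.4 in 5C-F and 400.8 in 5C-S. Of the 10, 9 fell in 5C against DMSO, 9 rose in 5C-G, 6 in 5C-C and 9 in 5C-F, while in 5C-E their values had a median of 0.31 and ran from -0.60 to 1.32. C1qa, a complement gene of macrophages, averaged 798.7 FPKM in DMSO, 58.4 in 5C and 1476.6 in 5C-G. Of the 7 endothelial markers in the table, 1 fell in 5C against DMSO, which was Lyve1 (a mean of 71.6 FPKM in DMSO and 2.95 in 5C). In 5C-G 2 rose, Lyve1 among them (38.6), and 2 fell. In 5C-F only Lyve1 was called, and it rose by 2.26 (SE 0.23, adjusted p = 5.73e-05), to a mean of 13.2 FPKM. The endothelial genes Pecam1 and Cdh5 were at 0 counts in 5C and in 5C-F. Of the 3 dendritic cell and neutrophil markers tested, S100a8, a neutrophil gene, fell by 2.23 in 5C against DMSO (SE 0.63, adjusted p = 0.0434) and rose by 2.07 in 5C-G (SE 0.63, adjusted p = 0.0227), from a mean of 3.39 FPKM in DMSO to 0.754 in 5C and 2.83 in 5C-G, while the neutrophil gene Ly6g was at 0 counts in 5C and in 5C-G. S100a8 also rose by 2.50 in 5C-C (SE 0.64, adjusted p = 0.00543), to a mean of 3.82 FPKM. In 5C-C, where 6 of the 10 macrophage markers and S100a8 rose, Itgb2 had a log2 fold change of 0.35 (adjusted p = 0.135) and Itgam of 0.15 (0.627). The part of the macrophage markers, Lyve1 and S100a8 in the Itgb2 and Itgam results was not tested.

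Itgb6 moved opposite to Itgb2 in 5C against DMSO and in 5C-G. It encodes the epithelial partner of alpha V that binds and activates latent TGF-beta, and it is induced in injured epithelium and reactive bile ducts. Itgb6 measured 0.123 and 0.104 FPKM in DMSO A and B, 1.34 and 0.815 in 5C, 0.223 and 0.0231 in 5C-G, 1.24 and 0.895 in 5C-C, 0.598 and 1.08 in 5C-E, 0.4903 and 0.897 in 5C-F and 0.181 in 5C-S. Every library of 5C, 5C-C, 5C-E and 5C-F lay above every library of DMSO, 5C-G and 5C-S. Itgb6 rose by 3.16 on the log2 scale (SE 0.62, adjusted p = 0.00336) in 5C against DMSO and fell by 3.06 on the log2 scale (SE 0.62, adjusted p = 0.00188) in 5C-G against 5C. These levels rested on 23 to 32 counts in DMSO, 178 to 319 in 5C, 51 and 6 in 5C-G A and B and 44 in 5C-S. Without DMSO B the rise in 5C was 3.04 with an adjusted p of 0.06 (0.06 at most over all alternatives), and the value in 5C-G was -5.29 without 5C-G A and -2.22 without 5C-G B.

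The cholangiocyte and epithelial marker Epcam moved the same way, with a mean of 1.51 FPKM in DMSO, 15.1 in 5C and 3.18 in 5C-G. It was the only 1 of the 6 cholangiocyte markers called in 5C against DMSO, and 2 of the 6 fell in 5C-G. The summed level of that list was 2598 to 2957.8 FPKM in DMSO, 1638.8 to 1976.5 in 5C and 1981.8 to 2437.1 in 5C-G. The median log2 fold change of the 6 markers was 0.38 in 5C against DMSO and -0.52 in 5C-G against 5C. In both comparisons the sum thus moved opposite to the median. The part of these cells in the Itgb6 result was not tested.

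Itgb3, the beta subunit of the vitronectin receptor and of the platelet fibrinogen receptor, was lowest in 5C-G. Itgb3 measured 1 and 0.951 FPKM in DMSO A and B, 1.14 and 1.94 in 5C, 0.748 and 0.589 in 5C-G, 0.835 and 1.48 in 5C-C, 1.96 and 2.26 in 5C-E, 1.15 and 1.17 in 5C-F and 1.29 in 5C-S. Both 5C-G libraries lay below all others. Itgb3 fell by 1.08 on the log2 scale (SE 0.33, adjusted p = 0.0249) in 5C-G against 5C, the weakest of the calls there. Without 5C B it was -0.67 (adjusted p = 0.272, the highest of 0.0061 to 0.272 over the alternatives), and the call was also lost without 5C-G B (-1.0), in a fit of the 2 groups alone (adjusted p = 0.0527) and under the offset for GC content and length (-0.93).

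Itgb5 and Itgb8, the remaining beta subunits that pair with alpha V, were never called. Itgb5 had a log2 fold change of 0.81 in 5C-G against 5C with an adjusted p of 0.00329, short of 2-fold. Itgb8, which like Itgb6 activates TGF-beta, ran from 0.819 (5C-G B) to 2.73 (DMSO A) FPKM, with both DMSO and both 5C libraries above every 5C-C, 5C-F and 5C-S library.

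**Figure D4:**
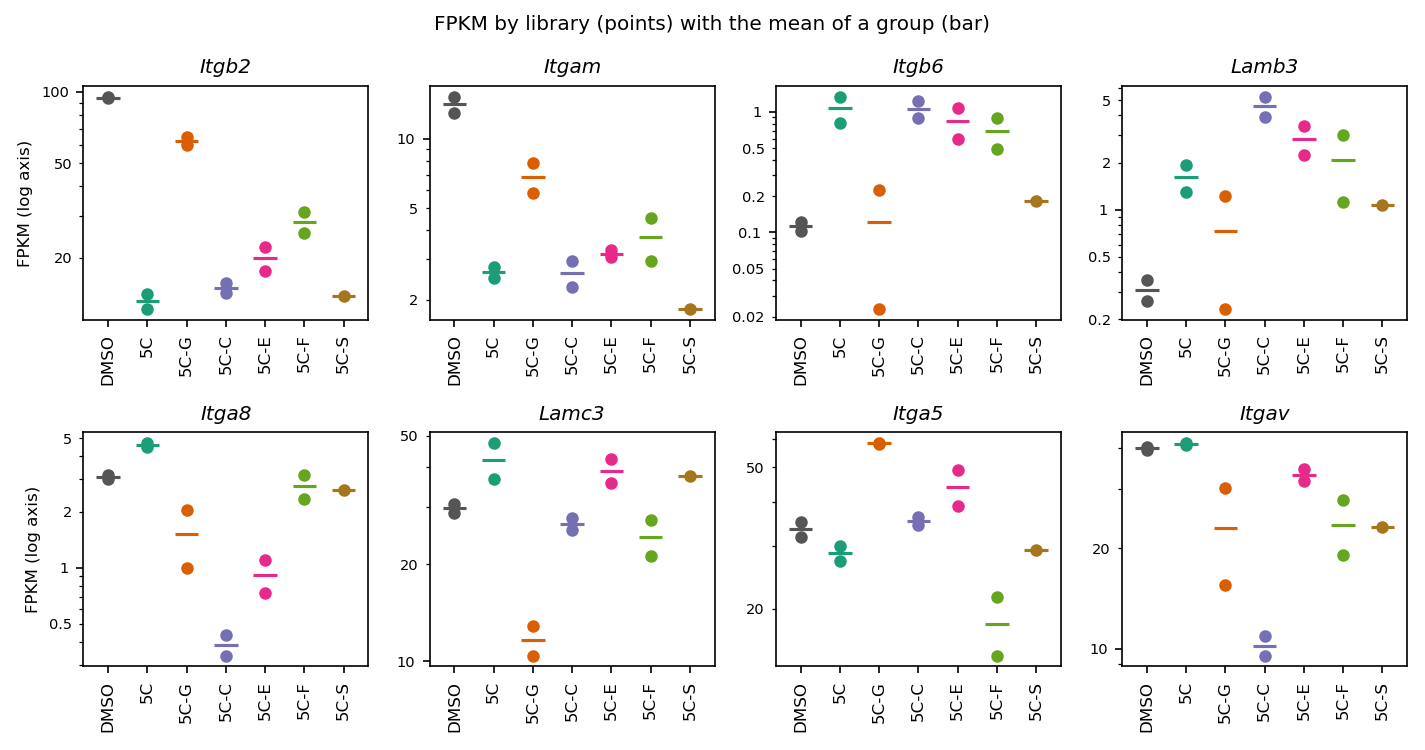
FPKM of 8 called genes in each library (points) with the group mean (bar), on log axes that differ between panels and do not start at 0. Itgb2 and Itgam are high in DMSO and 5C-G where Itgb6 is low, Itga8 and Itgav are lowest in 5C-C, and Lamc3 is lowest and Itga5 highest in 5C-G.

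The alpha subunits that bind the RGD motif of fibronectin, vitronectin and nephronectin were called in the removals, and their values in 5C against DMSO ran from -0.30 to 0.50. Itga8, the nephronectin receptor of stellate cells and other mesenchymal cells, gave the widest falls. Itga8 measured 3.16 and 3.02 FPKM in DMSO A and B, 4.496 and 4.696 in 5C, 2.05 and 0.999 in 5C-G, 0.435 and 0.336 in 5C-C, 1.103 and 0.732 in 5C-E, 3.18 and 2.34 in 5C-F and 2.62 in 5C-S. Both 5C libraries were the highest, 5C-C was the lowest, and 5C-G and 5C-E overlapped each other below DMSO. Itga8 fell by 3.42 on the log2 scale (SE 0.32, adjusted p = 2.99e-06) in 5C-C, fell by 2.39 on the log2 scale (SE 0.30, adjusted p = 0.000136) in 5C-E and fell by 1.49 on the log2 scale (SE 0.29, adjusted p = 0.00141) in 5C-G, each against 5C. The fall in 5C-G became -0.96 under an offset for GC content and length.

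Acta2, the actin of activated stellate cells, was at a mean of 223.7 FPKM in 5C, 38.7 in 5C-C and 47.0 in 5C-E, beside these falls of Itga8. Des, another stellate cell gene, rose in the same comparisons, by 1.25 and 1.05 on the log2 scale. Over the 10 stellate cell and fibroblast markers, 1 rose and 2 fell in 5C-C, 1 rose and 1 fell in 5C-E, and 3 rose and 1 fell in 5C-G. Their summed level was 1470.2 to 1471.8 FPKM in 5C and higher, at 1962.7 to 2354.6, in 5C-G, where Itga8 fell. The part of these cells in the Itga8 result was not tested.

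Itgav, the alpha V subunit shared by Itgb1, Itgb3, Itgb5, Itgb6 and Itgb8, was among the more abundant members. Itgav measured 39.5 and 40.1 FPKM in DMSO A and B, 40.8 and 41.3 in 5C, 30.3 and 15.5 in 5C-G, 10.9 and 9.51 in 5C-C, 34.6 and 31.9 in 5C-E, 27.8 and 19.1 in 5C-F and 23.1 in 5C-S. The DMSO and 5C libraries were the 4 highest, both 5C-C libraries were the lowest, and 5C-G A and B differed widely. Itgav fell by 1.85 on the log2 scale (SE 0.24, adjusted p = 4.58e-05) in 5C-C against 5C, and the fall was -0.99 under the offset for GC content and length. In 5C-G its value was -0.73 (adjusted p = 0.0259), short of 2-fold.

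Itga5, the alpha subunit of the classical fibronectin receptor, was highest in 5C-G. Itga5 measured 31.8 and 35.2 FPKM in DMSO A and B, 30.1 and 27.3 in 5C, 58.4 and 58.5 in 5C-G, 34.5 and 36.3 in 5C-C, 38.9 and 49.1 in 5C-E, 14.7 and 21.5 in 5C-F and 29.3 in 5C-S. Both 5C-G libraries lay above all others, and both 5C-F libraries below all others. Itga5 rose by 1.17 on the log2 scale (SE 0.19, adjusted p = 0.000313) in 5C-G against 5C, and by 0.85 under the offset for GC content and length. For 5C-F its value was -0.57 (adjusted p = 0.0591).

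Itga2b, the alpha subunit of the platelet fibrinogen receptor, was a low-level gene that was higher in 5C-C. Itga2b measured 0.651 and 0.476 FPKM in DMSO A and B, 0.595 and 0.663 in 5C, 1.24 and 1.19 in 5C-G, 2.33 and 2.28 in 5C-C, 0.811 and 1.48 in 5C-E, 0.246 and 0.676 in 5C-F and 1.03 in 5C-S. Both 5C-C libraries exceeded every other library, of which the highest was 5C-E B. Itga2b rose by 2.03 on the log2 scale (SE 0.41, adjusted p = 0.00102) in 5C-C against 5C, and the call held under each alternative run. Of the platelet genes, Gp9 and Gp1bb were at 0 counts in 5C-C and in 5C, while Pf4, which macrophages also express, averaged 10.9 FPKM in 5C and 50.2 in 5C-C.

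The alpha subunits that bind collagen, the coat of these dishes, all pair with beta1, and each was called at least once. Itga11, a receptor for fibrillar collagen on fibroblasts, was higher in 5C than in DMSO. Itga11 measured 1.69 and 0.8503 FPKM in DMSO A and B, 2.57 and 4.02 in 5C, 2.84 and 2.36 in 5C-G, 5.75 and 2.86 in 5C-C, 6.08 and 5.98 in 5C-E, 1.02 and 1.43 in 5C-F and 4.13 in 5C-S. Both DMSO libraries and both 5C-F libraries lay below every library of the other groups. Itga11 rose by 1.30 on the log2 scale (SE 0.34, adjusted p = 0.0285) in 5C against DMSO and fell by 1.33 on the log2 scale (SE 0.34, adjusted p = 0.0215) in 5C-F against 5C.

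Both Itga11 calls rested on single libraries, although the rise was larger without DMSO A (1.90) and without 5C A (1.60). The rise was 0.89 without DMSO B and 0.92 without 5C B (adjusted p = 0.376 and 0.372, of 4.43e-05 to 0.376 over the alternatives). The fall was -0.94 without 5C B, -1.15 without 5C-F A and -1.55 without 5C-F B (adjusted p = 0.236, 0.123 and 0.0705, of 3.9e-05 to 0.236). The summed level of the 10 stellate cell and fibroblast markers was 1470.2 to 1471.8 FPKM in 5C and 900.7 to 987.9 in 5C-F, and its part in the falls of Itga11 and Lama4 there was not tested.

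Itga2, the collagen receptor of platelets and epithelia, was lowest in 5C-G. Itga2 measured 0.8199 and 0.292 FPKM in DMSO A and B, 1.43 and 1.05 in 5C, 0.235 and 0.238 in 5C-G, 0.598 and 0.535 in 5C-C, 1.47 and 1.76 in 5C-E, 1.195 and 1.93 in 5C-F and 0.727 in 5C-S. Both 5C-G libraries lay below all others. Itga2 fell by 2.25 on the log2 scale (SE 0.41, adjusted p = 0.000888) in 5C-G against 5C, and the value was -1.65 under the offset for GC content and length (adjusted p = 0.011). Its value for 5C against DMSO, 1.08, had an adjusted p of 0.133, and DMSO A and B differed by more than 2-fold.

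Itga10, a collagen receptor of cartilage, and Itga1, the collagen receptor of stellate and smooth muscle cells, were lowest in 5C-C. Itga10 measured 1.87 and 2.02 FPKM in DMSO A and B, 2.64 and 2.56 in 5C, 2.37 and 1.58 in 5C-G, 0.618 and 0.673 in 5C-C, 2.25 and 2.14 in 5C-E, 1.61 and 2.67 in 5C-F and 2.85 in 5C-S. The 5C-C libraries lay apart from all others, the next being 5C-G B. Itga1 measured 4.104 and 4.53 FPKM in DMSO A and B, 6.05 and 5.67 in 5C, 4.13 and 3.46 in 5C-G, 2.28 and 2.21 in 5C-C, 6.13 and 4.65 in 5C-E, 3.24 and 2.94 in 5C-F and 5.05 in 5C-S. Here too both 5C-C libraries were the lowest, with 5C-F B next. Itga10 fell by 1.84 on the log2 scale (SE 0.28, adjusted p = 0.000133) and Itga1 fell by 1.22 on the log2 scale (SE 0.18, adjusted p = 0.00011), both in 5C-C against 5C. Under the offset for GC content and length the Itga1 value was -0.13 with an adjusted p of 0.596 (5.7e-10 to 0.596 over the alternatives), whereas the Itga10 call held under each alternative run.

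Of the 4 subunits that bind laminin, Itga7 was called in 3 comparisons. It encodes the laminin receptor of muscle and other contractile cells. Itga7 measured 2.55 and 2.803 FPKM in DMSO A and B, 1.36 and 1.38 in 5C, 3.34 and 2.76 in 5C-G, 4.29 and 3.68 in 5C-C, 1.7 and 1.83 in 5C-E, 1.61 and 2.22 in 5C-F and 1.64 in 5C-S. The 5C libraries were the lowest of all and the 5C-C libraries the highest. Itga7 fell by 1.04 on the log2 scale (SE 0.21, adjusted p = 0.00371) in 5C against DMSO, rose by 1.29 on the log2 scale (SE 0.21, adjusted p = 0.000342) in 5C-G and rose by 1.7 on the log2 scale (SE 0.21, adjusted p = 3.54e-05) in 5C-C, the last 2 against 5C. The fall lay at the 2-fold limit and was not called without DMSO B (-0.97) or without 5C A (-1.01, adjusted p = 0.067, the highest of 1.89e-05 to 0.067), nor with scaling by total counts (-0.97) or the offset for GC content and length (-0.85). That offset gave 0.97 for 5C-G. Des, the intermediate filament of contractile cells, rose by 2.64 in 5C-G (SE 0.24, adjusted p = 1.03e-06), from a mean of 15.5 FPKM in 5C to 86.1, and rose in 5C-C as well, to 32.7. In 5C-C the 10 stellate cell and fibroblast markers had a median of -0.20, 1 rose and 2 fell, and Acta2, the actin of contractile cells, fell by 2.36 (SE 0.21, adjusted p = 2.63e-06). The part of these cells in the rises of Itga7 was not tested.

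Itgb4, which pairs with alpha6 in the hemidesmosome, was higher in 5C-C. Itgb4 measured 0.791 and 0.832 FPKM in DMSO A and B, 2.28 and 1.21 in 5C, 2.499 and 2.85 in 5C-G, 5.004 and 2.65 in 5C-C, 2.603 and 4.34 in 5C-E, 1.3 and 2.87 in 5C-F and 1.68 in 5C-S. DMSO was the lowest group, 5C-C and 5C-E overlapped, and in 5C as in 5C-C library A lay well above B. Itgb4 rose by 1.29 on the log2 scale (SE 0.37, adjusted p = 0.0119) in 5C-C against 5C. It was 0.95 without 5C B and 0.82 without 5C-C A (adjusted p = 0.141 and 0.133, of 7.03e-06 to 0.141), and 0.99 under the offset for GC content and length. Krt19, a keratin of bile ducts, rose by 1.68 in 5C-C too (SE 0.19, adjusted p = 1.78e-05), from a mean of 74.5 FPKM in 5C to 212.7, the only 1 of the 6 cholangiocyte markers called there. Its part in the rises of Itgb4 and Lamb3 in 5C-C was not tested.

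Some exons of these genes overlap a gene on the other strand, and the library kit does not mark strand, so reads there cannot be told apart. Itgb4 overlaps Galk1, which rose by 1.96 in 5C-C (SE 0.25, adjusted p = 4.15e-05). Itga7 overlaps Tmt1b, with values of 0.62 in 5C against DMSO, -0.38 in 5C-G and 1.58 in 5C-C, the last with an adjusted p of 6.73e-05. For Itga2 in 5C-G and Itga1 in 5C-C, which overlap Mocs2, Mocs2 had 0.27 and 0.18 (adjusted p = 0.304 and 0.462). Cerkl, which overlaps Itga4, had 14 and 26 counts in 5C A and B and 0 in both 5C-C libraries (adjusted p = 0.00453), so it was lower in the comparison where Itga4 fell to 3 and 15 counts.

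Itga3 and Itga6, the alpha subunits of the epithelial laminin receptors, were not called. Itga3 had log2 fold changes of 0.60 in 5C-G and 0.65 in 5C-F (adjusted p = 0.0169 and 0.0263), short of 2-fold. Itga6 ran from 1.26 (5C-S A) to 3.48 (5C-E B) FPKM.

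Itga4 and Itga9 bind VCAM-1, fibronectin variants and other ligands, and Itga4 is mainly a leukocyte subunit. Itga4 measured 0.458 and 0.404 FPKM in DMSO A and B, 0.1002 and 0.161 in 5C, 0.2001 and 0.151 in 5C-G, 0.00709 and 0.0235 in 5C-C, 0.1002 and 0.0898 in 5C-E, 0.0776 and 0.06299 in 5C-F and 0.0943 in 5C-S. DMSO was the highest and 5C-C the lowest group, where A and B had 3 and 15 counts. Itga4 fell by 1.79 on the log2 scale (SE 0.50, adjusted p = 0.0412) in 5C against DMSO and fell by 2.83 on the log2 scale (SE 0.57, adjusted p = 0.00113) in 5C-C against 5C. The first call was lost without any 1 of DMSO A (-1.68), DMSO B (-1.88), 5C A (-1.48) or 5C B (-2.19), with adjusted p of 0.117 to 0.345 (0.000531 to 0.345 over all alternatives), and the second was -4.02 without 5C-C B, -2.25 without 5C-C A and -1.66 under the offset for GC content and length. The first call was also lost with scaling by total counts (-1.72, adjusted p = 0.0534), and 6 of the 10 alternatives run did not give it. Of the 10 macrophage markers, 9 fell in 5C against DMSO, and 6 rose and 0 fell in 5C-C, where Itga4 fell. The part of these markers in the Itga4 results was not tested. Itga9 ran from 3.999 (5C-F A) to 8.21 (5C-G B) FPKM and was not called.

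Among the laminin beta chains, Lamb3, which serves the anchoring of epithelia, was called in 5C against DMSO. Lamb3 measured 0.356 and 0.262 FPKM in DMSO A and B, 1.93 and 1.31 in 5C, 1.23 and 0.232 in 5C-G, 5.27 and 3.88 in 5C-C, 2.22 and 3.44 in 5C-E, 1.13 and 3.02 in 5C-F and 1.07 in 5C-S. Both DMSO libraries lay below both 5C libraries, 5C-C was the highest group, and 5C-G A and B fell on either side of the DMSO values. Lamb3 rose by 2.31 on the log2 scale (SE 0.54, adjusted p = 0.0128) in 5C against DMSO and rose by 1.66 on the log2 scale (SE 0.50, adjusted p = 0.0155) in 5C-C against 5C. In 5C-G it had -1.07 (adjusted p = 0.138).

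The Lamb3 calls depended on the libraries. The rise in 5C was 2.56 without DMSO A, 2.11 without DMSO B and 2.02 without 5C A (adjusted p = 0.0783, 0.152 and 0.112, of 4.46e-12 to 0.155). The rise in 5C-C was 1.45 without 5C B and 1.47 without 5C-C A (adjusted p = 0.123 and 0.0598, of 7.32e-08 to 0.123), and DESeq2 gave an adjusted p of 0.0513. G0s2, on the other strand, shares exonic bases with Lamb3, and had 0.95 in 5C against DMSO (SE 0.24, adjusted p = 0.0192, short of 2-fold) and rose by 1.14 in 5C-C (SE 0.23, adjusted p = 0.00119).

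Lama3, an alpha chain of epithelia, ran from 0.149 (DMSO B) to 0.658 (5C-C A) FPKM and was not called, with a value of 0.93 in 5C against DMSO (adjusted p = 0.315).

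Lamc3, the third gamma chain, stood near the level of Lamc1 in most groups and was called in 5C-G. Lamc3 measured 30.8 and 28.8 FPKM in DMSO A and B, 36.8 and 47.5 in 5C, 12.9 and 10.4 in 5C-G, 27.9 and 25.5 in 5C-C, 42.3 and 35.7 in 5C-E, 21.2 and 27.5 in 5C-F and 37.5 in 5C-S. The 5C-G libraries were the lowest of all, and the next library, 5C-F A, was at 21.2. Lamc3 fell by 1.73 on the log2 scale (SE 0.18, adjusted p = 6.03e-06) in 5C-G against 5C, and the call held under each alternative run. Nid2, a linker of laminin and collagen IV, fell by 1.28 too (SE 0.20, adjusted p = 0.000279), from a mean of 21.7 FPKM in 5C to 8.23 in 5C-G.

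Lamb1, Lamb2 and Lamc1, the widespread chains, were not called. Lamb2 varied the least of all members, from 36.04 (5C-F A) to 56 (5C-E B) FPKM. Lamb1 and Lamc1 ran from 19.1 (5C-F A) to 45.5 (5C-E B) and from 16.3 (5C-C B) to 51.2 (5C-E B), with both 5C-E libraries at the top. In 5C-F the values were -0.61 and -0.67 (adjusted p = 0.0196 and 0.0327), short of 2-fold.

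The 5 alpha chains had values from -0.18 to 0.93 in 5C against DMSO, without a call. Lama1, the alpha chain of embryonic basement membranes, rose in 5C-G and 5C-E. Lama1 measured 0.963 and 0.954 FPKM in DMSO A and B, 1.08 and 0.985 in 5C, 2.31 and 2.36 in 5C-G, 1.33 and 1.27 in 5C-C, 2.603 and 2.56 in 5C-E, 1.03 and 0.565 in 5C-F and 1.88 in 5C-S. The 5C-E libraries were the highest, the 5C-G libraries came next without overlap, and 5C-S followed. Lama1 rose by 1.31 on the log2 scale (SE 0.27, adjusted p = 0.00189) in 5C-G and rose by 1.25 on the log2 scale (SE 0.27, adjusted p = 0.0142) in 5C-E, each against 5C. The second was not called when any 1 of 5C A (1.30), 5C B (1.23), 5C-E A (1.27) or 5C-E B (1.26) was left out, with adjusted p of 0.0589 to 0.165 (0.000242 to 0.165 over all alternatives), and was 1.00 under the offset for GC content and length.

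Lama4, the chain of vascular and mesenchymal basement membranes, was low in 5C-F and high in 5C-E and 5C-C. Lama4 measured 4.99 and 4.48 FPKM in DMSO A and B, 4.99 and 5.03 in 5C, 4.14 and 3.09 in 5C-G, 7.75 and 6.93 in 5C-C, 10.04 and 10.6 in 5C-E, 1.97 and 2.72 in 5C-F and 5.397 in 5C-S. The 5C-F libraries were below all others and the 5C-E libraries above all others. Lama4 fell by 1.00 on the log2 scale (SE 0.18, adjusted p = 0.00289) in 5C-F against 5C, just past the 2-fold limit. It was -0.97 without 5C B, -0.82 without 5C-F A, -0.80 under the offset for GC content and length, and -0.98 by DESeq2. None of these was called, and of the 10 alternatives run the call held in 3 and was lost in 7. For 5C-E its value was 0.97 (adjusted p = 0.0048) and for 5C-C 0.71 (0.00472), both short of 2-fold.

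Lama5 and Lama2 were not called. Lama5 ran from 14.5 (5C-F A) to 40.4 (5C-E B) FPKM, with -0.73 in 5C-C (adjusted p = 0.00771). Lama2, the alpha chain of muscle and nerve, ran from 0.427 (5C-C B) to 1.29 (5C-G A) FPKM, with -0.87 in 5C-C (0.00837).

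The single 5C-S library was set beside 5C without a test. Of the members, 3 of 36 (8.33%) lay past 2-fold, where 18.9% of all genes did (8.3% higher and 10.6% lower). All 3 were lower, namely Itgb6 at -2.58, Itgax at -1.43 and Itgb8 at -1.03. Itgax rested on 2 counts in 5C-S and on 0 and 10 in the 5C libraries, so its value has little meaning at this depth. Itgb6 had 44 counts in 5C-S against 319 and 178 in 5C A and B. Without 5C B, 4 members lay past 2-fold, of which only Itgb6 (-2.87) was past it in the same direction with both 5C libraries. Itgb8 was then at -0.82, Itgax changed sign, and Itgae (1.68) and Itgal (1.61) passed.

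Genes that work with these receptors were followed as lists that hold no member. Their counts stand beside the shares of all genes called, which were 1.66% higher and 2.89% lower in 5C against DMSO and are given for the removals with the adaptors. Of 14 basement membrane partners, 1 rose in 5C against DMSO, which was Col15a1, a collagen of the basement membrane zone (1.51, SE 0.22, adjusted p = 0.000166). In the removals 2 of the 14 fell in 5C-G, 1 fell in 5C-C and 1 rose in 5C-E, and in 5C-F the values ran from -1.49 to 0.59 without a call. The one that fell in 5C-C was Col4a3, a chain of collagen IV, which fell by 2.55 (SE 0.80, adjusted p = 0.0186), from a mean of 0.303 FPKM to 0.0463. Col15a1 was the one that rose in 5C-E, by 1.15 (SE 0.21, adjusted p = 0.00468), to a mean of 8.90 FPKM from 3.82 in 5C. The median of the list was 0.11 in 5C against DMSO, and against 5C it was -0.46 without G, -0.49 without C, 0.24 without E and -0.53 without F, beside medians of all genes from -0.01 to 0.01.

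Of 15 ligands other than laminins found in the table, Npnt, the ligand of Itga8, rose in 5C against DMSO by 1.19 (SE 0.26, adjusted p = 0.00755), and Tnc, the matrix protein tenascin C, fell by 1.16 (SE 0.28, adjusted p = 0.0137). Cdh1, the epithelial cadherin that alphaE and alpha2 integrins can bind, was among 3 that fell in 5C-G, and it fell by 2.05 (SE 0.35, adjusted p = 0.000462), from a mean of 28.3 FPKM to 6.41. Thbs1, the matrix protein thrombospondin 1, fell by 3.36 in 5C-C, and it also fell by 1.65 in 5C-E and fell by 1.27 in 5C-F (adjusted p = 1.63e-06, 0.00185 and 0.00818). Its mean level was 223.6 FPKM in 5C and 19.5 in 5C-C, while 5C-E had 75.1 and 5C-F 86.4. Of the list, 2 fell in 5C-C, 1 rose (Tnc, by 1.21, SE 0.28, adjusted p = 0.0219) and 2 fell in 5C-E, and 3 fell in 5C-F.

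Of 28 adaptors and kinases, 3 fell in 5C against DMSO, 4 rose and 1 fell in 5C-G, 1 rose and 7 fell in 5C-C, 1 rose in 5C-E, and 2 rose and 2 fell in 5C-F. Of all genes, 2.89% fell in 5C against DMSO, 7.47% rose and 5.64% fell in 5C-G, 9.65% rose and 10.5% fell in 5C-C, 0.654% rose in 5C-E, and 2.69% rose and 2.15% fell in 5C-F. Parvg, the parvin of blood cells, fell by 3.38 in 5C against DMSO and rose by 3.47 in 5C-G, by 1.95 in 5C-C and by 1.44 in 5C-E, with a mean of 7.77 FPKM in DMSO, 0.784 in 5C and 7.86 in 5C-G. Fermt3, the kindlin of blood cells, rose in 5C-F by 1.38 (SE 0.32, adjusted p = 0.0125). Fermt1, the kindlin of epithelia, fell by 3.51 in 5C-G (SE 0.85, adjusted p = 0.00591), beside Itgb6. Vcl, vinculin, which ties talin to actin, fell by 3.21 in 5C-C (SE 0.53, adjusted p = 0.000269) and fell by 1.75 in 5C-F (SE 0.50, adjusted p = 0.035), from a mean of 33.5 FPKM in 5C to 3.30 and 9.28.

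Of 5 laminin receptors that are not integrins, 3 rose in 5C-C, where 9.65% of all genes rose, and the values in 5C against DMSO ran from -0.25 to 0.59. Rpsa, a ribosomal protein also described as a laminin receptor, rose the most, by 1.62 (SE 0.22, adjusted p = 7.57e-05), from a mean of 415 FPKM to 1132.7.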

How the data were processed

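RNA of 13 libraries in 7 groups was sequenced for the authors by a service provider as paired reads from a library kit that does not mark strand. The submitters' processing notes name featureCounts, Subread, DESeq2 and GRCm39, without versions. The authors deposited raw counts per gene and FPKM values (fragments scaled to gene length and library size), which were joined by gene ID, and 0 columns of per-sample values were left unused. Column names gave the group but not the sample, so libraries A and B follow column order and pair nothing across groups. The study's methods define its replicates as biologically separate, and neither they nor the labels say whether A and B are separate mice or cultures, so p-values measure the spread between these libraries.

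Counts were fitted with edgeR 4.0.16 in R 4.3.3 (quasi-likelihood, TMM scaling, filterByExpr with a minimum count of 10, 19884 genes, 6 residual degrees of freedom, common biological coefficient of variation 0.261). A call needs a Benjamini-Hochberg adjusted p under 0.05 over all genes tested and a fold beyond 2. The scripts were tested on simulated data. Alternatives were DESeq2 1.42.0, scaling by total counts, no filter, limma 3.58.1 on log2(FPKM + 1), an offset for GC content and transcript length, the 2 compared groups alone, adjusted p alone and each library left out, where the lone library left is assumed to vary like the other groups. A single member enters the totals and is not reported here otherwise. Each other member called at least once was given in every library and the others by range, and from each partner list the called genes with the largest rise and fall in a comparison. Of the marker lists, only genes set beside a result are named. Members and lists were chosen with earlier results of these data known. Promoters and overlaps were read from GRCm39 with GENCODE M39.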

Additional observations from a re-analysis of the deposited data

How the results depend on the processing

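No sign of a called change reversed under any alternative run, and 11 of the 32 called changes were called under each of them. The number of called members in 5C against DMSO was 2 by limma on log2(FPKM + 1) and 2 to 6 when 1 library was left out, beside 8. In 5C-G it was 5 by limma and 9 to 15 with 1 library left out, beside 10. In 5C-C it was 16 by adjusted p alone and 7 to 10 with 1 library left out, beside 9. In 5C-E it was 1 by limma, 1 under the offset for GC content and length and 1 to 2 with 1 library left out, beside 2, and the 2 without 5C-E A share 1 with those. In 5C-F it was 1 by limma, 8 by adjusted p alone and 1 to 3 with 1 library left out, beside 3, and the 3 without 5C-F A share 1 with those. In 5C-S, 0 members lay past 2-fold by limma and 3 to 4 with 1 library left out, beside 3, and the 4 without 5C B share only 1 of those 3, Itgb6. The test over 6 groups passed 26 to 31 members with 1 library left out, beside 30. The offset for GC content and length ended 10 calls, DESeq2 2, scaling by total counts 2, the 2 groups alone 2 and no filter 1, and the cause of these losses was not tested. Scaling by total counts moved the median of all genes to -0.14 in 5C-G, -0.15 in 5C-C and -0.11 in 5C-F. No paired analysis was possible because the columns carry no replicate number that matches a label. With 2 libraries a group and few counts for Itgae, Itgax, Itga4, Itgb6 and Itgb7, small changes of these genes were not detectable.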
